A study of Mus musculus with 6 samples.

Results

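The mitochondrial ribosomal protein genes were followed in hearts of WT and SRAKO mice. They were taken as the rows of the deposited expression table whose gene symbol begins with Mrps or Mrpl and a number, with the highest row kept for each symbol. The rule found 78 genes among 25901 rows, 29 named for the small subunit (Mrps) and 49 for the large subunit (Mrpl). Pseudogene symbols fall outside the rule, and 4 of them were left out. Whole-heart RNA was measured in 3 WT hearts (WT2368, WT2379 and WT2378) and 3 SRAKO hearts (SRAKO2365, SRAKO2371 and SRAKO2372). Mice of both genotypes had received isoproterenol, a beta-adrenergic agonist, over 4 weeks, so each comparison is between genotypes under the drug and no untreated heart enters it. The labels give neither the SRAKO allele nor the strain, sex, age or litter. They number the hearts differently but do not say that each came from a separate animal, so p-values measure the spread between these samples.

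The mitochondrial ribosome translates only the few proteins that mitochondrial DNA encodes, all of them parts of the respiratory chain and ATP synthase. Its ribosomal RNAs are made inside the organelle, whereas its proteins are encoded in the nucleus, made in the cytosol and imported. The small subunit decodes the messenger RNA, and the large subunit joins the amino acids and docks on the inner membrane. Some members descend from bacterial ribosomal proteins and share their numbers, and others exist only in mitochondrial ribosomes. In heart, a tissue rich in mitochondria, inherited defects of several of these proteins are known to cause cardiomyopathy.

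The 6 libraries did not look alike in other respects. The row of Sra1, the gene of steroid receptor RNA activator named in the series title, stood at an FPKM, a unit that divides fragments by transcript length and by library size, of 4.40, 6.31 and 4.23 in WT and 1.96, 1.78 and 2.05 in SRAKO. That row holds 5 transcripts of Sra1 and 1 of the neighbouring gene Apbb3, so its remaining signal cannot be assigned to Sra1 alone. A ribosomal RNA row, AY036118, read 6242 in WT2368 and 3003 in SRAKO2371 against 273 to 595 in the other 4 hearts. WT2368 would also have the fewest fragments behind an FPKM of 1, if the commonest low value is 1 fragment, which is unverified. All 7 ventricular cardiomyocyte markers were present, at a summed FPKM of 11127 to 13777 in WT and 12115 to 12266 in SRAKO. Summed adipocyte markers spanned 30.6 to 43.7 in WT and 29.9 to 161 in SRAKO, neutrophil markers 0.889 to 9.49 and 2.50 to 51.6, and macrophage markers 77.5 to 91.4 and 92.4 to 103. Summed atrial markers were 8185 in WT2379 and 2388 to 3646 in the other 5 hearts. Brown fat markers were 162 in SRAKO2371, 81.5 in SRAKO2372 and 16.7 to 41.2 in the other 4. The part of these differences in the values below was not tested.

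Levels of the members spanned 67.6-fold, from a mean FPKM of 1.06 (Mrps10) to 71.4 (Mrpl12). FPKM is scaled by transcript length, so levels are set side by side here as a description of rows. A row holds from 1 transcript (Mrpl16) to 26 (Mrpl33), and 8 rows carry further symbols, so levels of genes compare only roughly. The median over the 78 genes was 10.5, with 14 genes at 20 or more and 24 below 5. Large subunit genes had the higher median level, 13.2 against 6.59 for small subunit genes. Numbering made less difference than subunit: small subunit genes numbered up to S21, the range of the bacterial proteins, had a median of 7.05 and those with higher numbers 6.59, while the large subunit medians were 10.8 up to L36 and 14.0 beyond it. All 78 genes passed the filter on low rows, which asked for an FPKM of 1 in 3 or more hearts, and 77 reached that level in all 6, so no member was lost to low values.

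**Figure D1:**
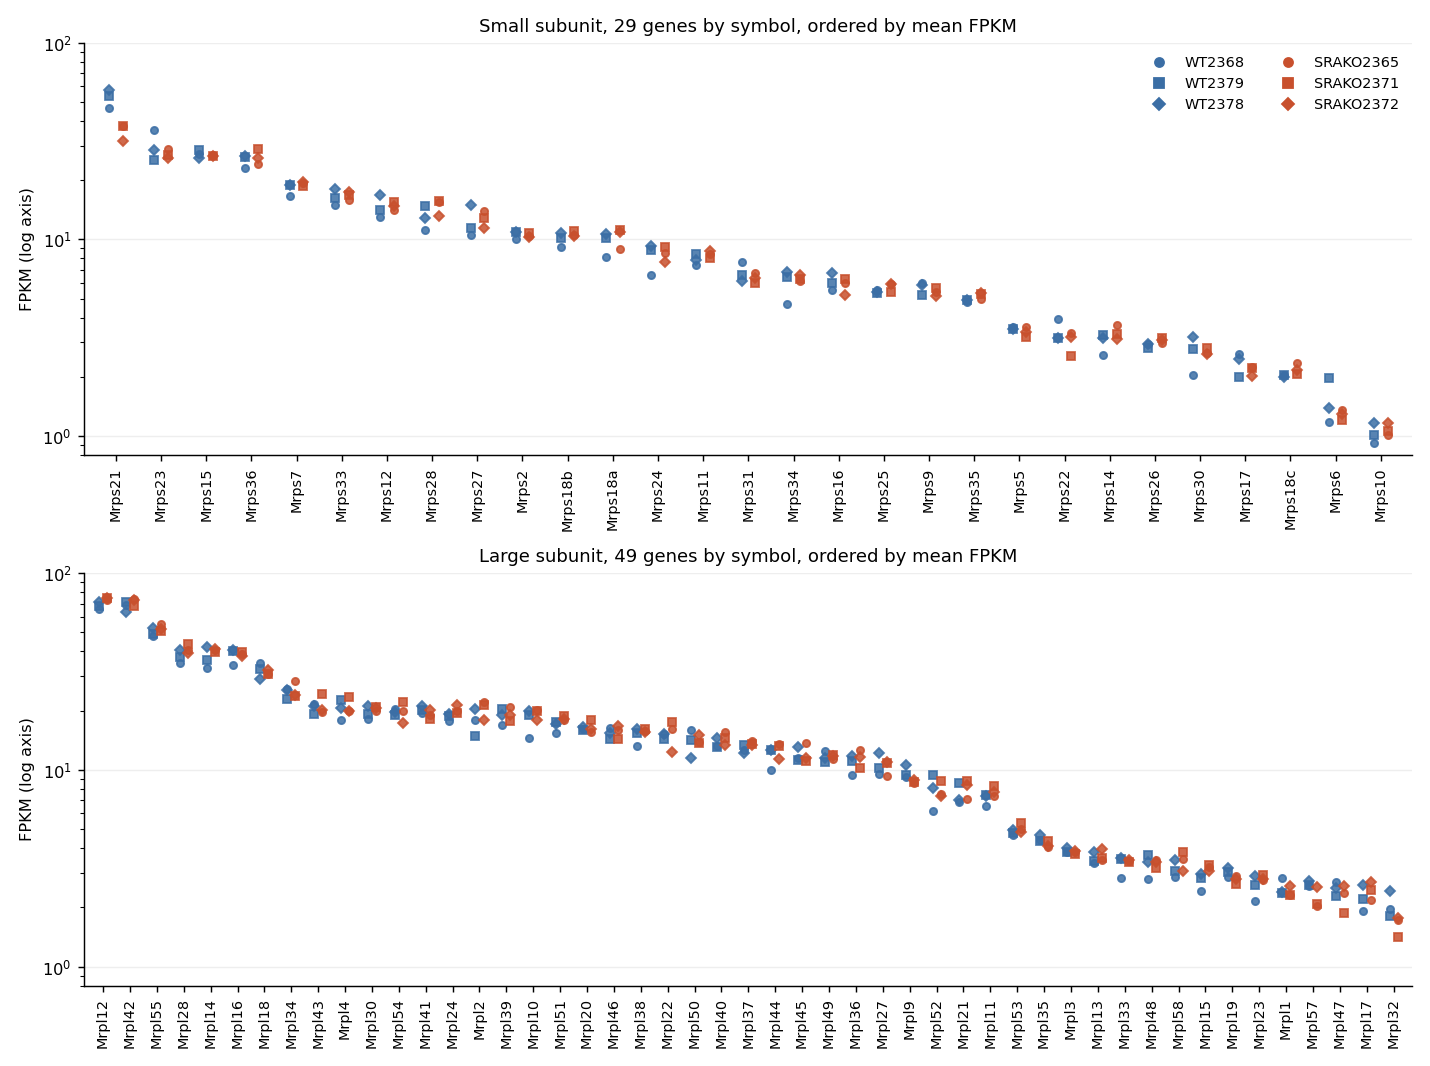
FPKM of each gene in each heart on a log axis, small subunit above and large subunit below, ordered by mean level; colour marks the genotype and symbol shape the heart. Within a gene the 6 hearts lie close together beside the 67.6-fold range between genes, and the hearts of Mrps21, the highest small subunit gene, fall into 2 groups by genotype.

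At the top of the large subunit stood Mrpl12, a stalk protein that also binds the mitochondrial RNA polymerase, at 71.4. Mrpl42 followed at 69.6, Mrpl55 at 51.2 and Mrpl28, a homologue of bacterial L28, at 39.4. The hearts of Mrpl12 spanned 65.7 to 75.2 and those of Mrpl42 63.2 to 73.6, so the order of these 2 genes does not exceed their spread, whereas Mrpl55 lay below both in every heart. The lowest large subunit genes were Mrpl32 at 1.85, Mrpl17 at 2.34, Mrpl47 at 2.38 and Mrpl57 at 2.42, and their hearts overlapped. Among small subunit genes, Mrps21 stood first at 44.0, above Mrps23 at 28.6, Mrps15 at 26.9 and Mrps36 at 25.8; it was the highest of these in every heart, while the hearts of the other 3 overlapped. Mrps36 is now known as a subunit of the alpha-ketoglutarate dehydrogenase complex, and Mrps15 is a homologue of bacterial S15. Mrps10 at 1.06, Mrps6 at 1.40, Mrps18c at 2.11 and Mrps17 at 2.26, all homologues of bacterial proteins, were lowest, and of neighbours in this order only Mrps18c and Mrps17 overlapped across hearts.

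Hearts of 1 genotype gave similar values for most members. The coefficient of variation had a median over genes of 8.71% among WT hearts and 5.72% among SRAKO hearts, and in 72 of 78 genes the highest heart was less than 1.5 times the lowest. The widest ranges belonged to Mrps21 at 1.80-fold, Mrpl32 at 1.72-fold and Mrps6 at 1.68-fold. WT2368 was the lowest of the 6 hearts in 42 of the 78 genes (53.8%), and it was also the lowest in 44.9% of all tested rows. WT2378 was the highest heart in 21 genes.

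Between genotypes, most of these genes moved by little. Differences were taken between means of log2(FPKM + 1), SRAKO less WT, a scale on which low genes change by less than their fold, and were tested with limma over 10201 rows with Benjamini-Hochberg adjustment at a threshold of 0.05. No member passed, and the smallest adjusted p among the 78 was 0.999. Over all rows 2 passed (0.0196%). The row of Sra1 itself did not pass, at 38.8% of the WT level and a log2 difference of -1.01. Its limma unadjusted p was 0.000101 and its Benjamini-Hochberg adjusted p 0.258. A gene that was not called may therefore still differ. At an unadjusted p under 0.05, 1 member was lower (Mrps21) and 0 were higher, beside 1.56% of all rows lower and 1.9% higher. In 57 genes the difference lay within 0.10 in either direction, and in 3 it exceeded 0.20. Of all 10201 tested rows, 6031 lay within 0.10 and 1481 exceeded 0.20. In this whole-heart RNA, fewer cells of a type and less RNA per cell cannot be told apart.

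The 78 differences lay more often above 0 than below it. SRAKO was higher in 55 genes and lower in 23, with a median of 0.04, beside a median of 0.01 and 53.5% higher over all tested rows. The lean was smaller in several other fits but not in all. With the same FPKM sum in every heart, 56 genes were higher and 22 lower, and so they were without WT2378. With a filter at FPKM 5, which tests 53 members, 41 were higher and 12 lower. Without WT2368, the heart in which most members were lowest, 42 genes were higher and 36 lower, and without both WT2368 and SRAKO2371 the split was 41 and 37. It was 44 and 34 with array weights, 46 and 32 without SRAKO2371 and 47 and 31 with quantile normalization. The median over all rows was -0.02, 0.02 and -0.0005 in that order, so the whole data set shifted between fits too. In the 2 fits without WT2368 the median of the small subunit was -0.03 and that of the large subunit 0.02 and 0.01, beside -0.04 and -0.03 over all rows.

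**Figure D2:**
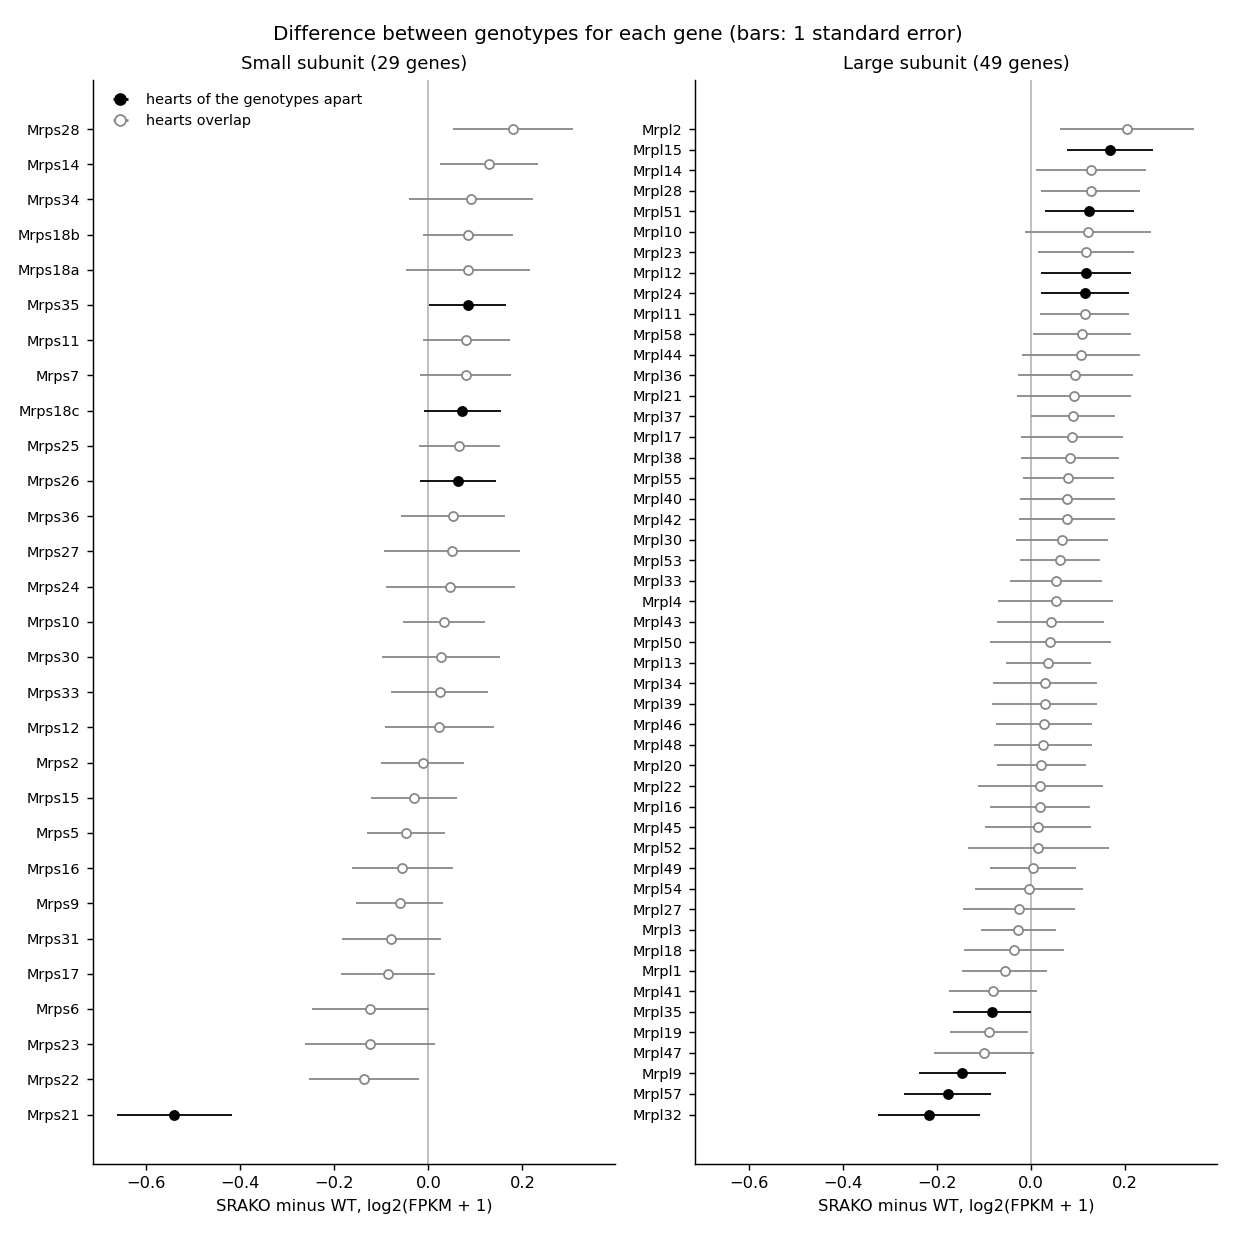
Difference of each gene between genotypes, SRAKO minus WT in log2(FPKM + 1), with bars of 1 standard error; filled points mark genes in which the hearts of the genotypes do not overlap. Mrps21 lies alone at -0.54, and the other points lie between -0.22 and 0.20.

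In 12 genes every heart of 1 genotype lay above every heart of the other. SRAKO was higher in 7 of them, beside 4.28% of all tested rows, and lower in 5, beside 3.76%. Together they are 15.4% of the members, against 8.05% of all rows. These counts moved with the setting, and so did the share of all rows. After each heart was scaled to the same FPKM sum, 1 member was higher and 1 lower, beside 2.46% and 2.12% of all rows. Without WT2368 and SRAKO2371, 13 members (16.7%) were higher and 16 (20.5%) lower, beside 13.0% and 26.0% of all rows. Without WT2368 alone, 10 members (12.8%) were lower, beside 18.4%. Without WT2379, WT2378, SRAKO2371 or SRAKO2372, 11 to 19 members (14.1% to 24.4%) were higher, beside 6.73% to 12.6% of all rows.

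Mrps21, a homologue of bacterial S21, was lower in SRAKO hearts. It is annotated at chr3:95862634-95871519 on the minus strand (GENCODE M21, GRCm38), and its row holds only its own transcripts. The FPKM was 46.7, 53.3 and 57.2 in WT2368, WT2379 and WT2378, and 37.6, 37.7 and 31.8 in SRAKO2365, SRAKO2371 and SRAKO2372. The lowest WT heart thus stood well above the highest SRAKO heart. The means, given as elsewhere with the SD over 3 hearts, were 52.4 ± 5.30 (SD, n = 3) in WT and 35.7 ± 3.39 (SD, n = 3) in SRAKO, 68.1% of the WT level. The log2 difference was -0.54 (SE 0.12; limma unadjusted p = 0.00245, Benjamini-Hochberg adjusted p = 0.999). A two-sided exact permutation test gave p = 0.1, the smallest that 3 against 3 hearts allow. Over every alternative the difference stayed between -0.66 and -0.46 and the adjusted p between 0.474 and 0.99997, so it was never called.

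Genes beside Mrps21 had smaller differences. They were picked by position, within 50 kb, after the difference had been seen. Prpf3, which encodes a splicing factor, had 1.99 ± 0.191 in WT and 1.89 ± 0.142 in SRAKO (log2 difference -0.05), and Aph1a, a gamma-secretase subunit, had 11.1 ± 1.67 and 11.1 ± 0.737. Car14, a carbonic anhydrase, had 57.2 ± 2.57 and 60.3 ± 2.95. Ciart, a circadian repressor, had 3.05 ± 0.565 and 2.48 ± 0.601, a difference of -0.22 at an unadjusted p of 0.189 (limma). An antisense RNA, C920021L13Rik, begins on the plus strand, 3 bases from where the minus-strand Mrps21 annotation starts. It read 0.675 ± 0.163 and 0.586 ± 0.0885, below the filter. For BC028528, SRAKO hearts stood at 83.4% of the WT level (log2 difference -0.20, limma unadjusted p = 0.137). Log2 differences were thus below 0 for Prpf3, Ciart, BC028528 and Rprd2 (-0.03). They were above 0 for Aph1a (0.005) and Car14 (0.07). Whether the region shifted as a whole was not tested. Hearts of the 2 genotypes overlapped for each of the 6 tested neighbours.

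The 250 bases before the RefSeq start of Mrps21 (chr3:95871515-95871764, minus strand, GRCm38.p6) are shown because this is the gene with the largest difference. They hold none of the 3 short motifs searched below, so no base is in capitals.
Mrps21 upstream: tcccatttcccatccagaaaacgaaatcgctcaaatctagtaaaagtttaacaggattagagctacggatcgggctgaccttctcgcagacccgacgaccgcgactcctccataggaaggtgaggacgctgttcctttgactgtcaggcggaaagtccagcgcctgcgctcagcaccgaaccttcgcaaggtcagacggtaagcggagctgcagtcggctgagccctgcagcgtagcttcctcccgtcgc

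Other small subunit genes differed less. Mrps35, a protein found only in mitochondrial ribosomes, had 4.78, 4.90 and 4.90 in WT and 4.99, 5.28 and 5.36 in SRAKO, a difference of 0.08 (SE 0.08). Mrps26, also without a bacterial counterpart, had 2.94, 2.80 and 2.95 against 2.98, 3.15 and 3.08, a difference of 0.06 (SE 0.08). In both genes the nearest hearts of the 2 genotypes lay close together. The 3 paralogs of bacterial S18 occupy different places, with Mrps18a in the large subunit. Mrps18c had 2.05, 2.04 and 1.996 in WT and 2.34, 2.06 and 2.16 in SRAKO, a difference of 0.07 (SE 0.08), and its row is shared with the predicted gene Gm43511. Mrps18b had 9.99 ± 0.811 and 10.6 ± 0.315 with overlapping hearts, as had Mrps18a at 9.70 ± 1.35 and 10.3 ± 1.23, and both differences were 0.08.

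Further small subunit genes had larger differences but overlapping hearts. Mrps28 had 11.2, 14.7 and 12.8 in WT and 15.5, 15.6 and 13.1 in SRAKO, a difference of 0.18 (SE 0.13). Mrps14, a homologue of S14 linked to cardiomyopathy in patients, had 2.997 ± 0.370 and 3.37 ± 0.283, a difference of 0.13. Mrps22, also a known disease gene of the heart, had 3.96, 3.16 and 3.14 in WT and 3.33, 2.56 and 3.17 in SRAKO. Its difference of -0.14 rests on the high WT2368 and the low SRAKO2371, and without both it was 0.03. Mrps23 was 35.9 in WT2368 and 25.4 to 28.7 in the other 5 hearts, which gave -0.12 (SE 0.14), and Mrps6 was 1.97 in WT2379 and 1.18 to 1.39 elsewhere, which gave -0.12 (SE 0.12). In both genes 1 WT heart stands off from the remaining ones.

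Among large subunit genes, 4 were lower in all 3 SRAKO hearts than in every WT heart. Mrpl32 is processed by the m-AAA protease before it enters the ribosome, and it lies at chr13:14608184-14613165. Its FPKM was 1.96, 1.80 and 2.42 in WT and 1.72, 1.41 and 1.77 in SRAKO, with a gap between 1.80 and 1.77 that is small beside the spread. The means were 2.06 ± 0.322 and 1.63 ± 0.197, and the difference of -0.22 (SE 0.11) had an unadjusted p of 0.0832 in limma. Mrpl57 (chr14:57826234-57829296), known only from mitochondria, had 2.58, 2.59 and 2.71 in WT and 2.04, 2.09 and 2.52 in SRAKO, a difference of -0.18 (SE 0.09). SRAKO2372 was close to the WT hearts, and without it the unadjusted p was 0.0451 (limma; adjusted p = 0.9996). Mrpl9 (chr3:94443318-94451130), the homologue of L9, had 9.24, 9.43 and 10.5 against 8.53, 8.71 and 8.85, a difference of -0.15 (SE 0.09). Mrpl35 (chr6:71812997-71826969), the homologue of L35, had 4.47 ± 0.159 and 4.17 ± 0.168, a difference of -0.08 (SE 0.08), and its nearest hearts of the 2 genotypes were 4.37 and 4.36.

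A further 4 large subunit genes were higher in each SRAKO heart, among them Mrpl12, given below with the stalk. Mrpl15 (chr1:4773206-4785739), the homologue of L15, had 2.41, 2.80 and 2.96 in WT and 3.22, 3.27 and 3.05 in SRAKO, a difference of 0.17 (SE 0.09). Mrpl51 (chr6:125191801-125196269), whose row also carries the microRNA gene Mir3098, had 16.7 ± 1.04 and 18.2 ± 0.473, a difference of 0.12 (SE 0.09). Mrpl24 (chr3:87919506-87923672), the homologue of L24, had 17.8, 18.9 and 19.2 against 20.01, 19.4 and 21.3, also a difference of 0.12 (SE 0.09). In these 3 genes the lowest WT heart was WT2368. Each of the large subunit differences had an adjusted p of 0.999 in limma with Benjamini-Hochberg adjustment.

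**Figure D3:**
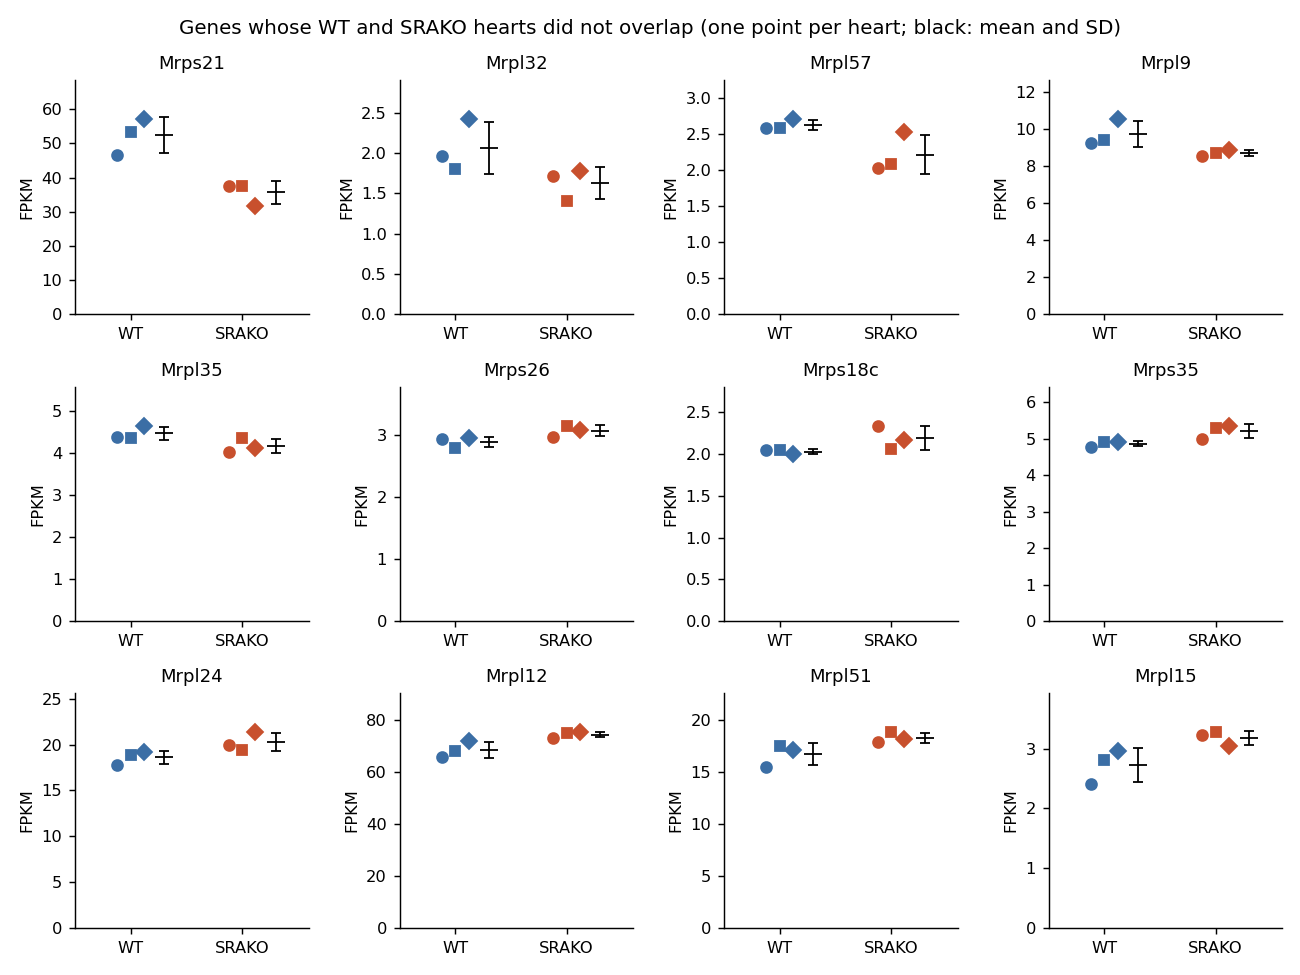
FPKM of the 12 genes in which the hearts of the genotypes do not overlap, 1 point per heart, with circles, squares and diamonds for WT2368, WT2379 and WT2378 or for SRAKO2365, SRAKO2371 and SRAKO2372, and the mean and SD in black; each axis starts at 0. Mrps21 shows a wide gap, from 46.7 to 37.7, while in Mrpl35 and Mrps26 the nearest hearts almost touch.

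The stalk of the large subunit, which recruits translation factors, was measured through Mrpl10, Mrpl11 and Mrpl12. Mrpl12 (chr11:120484613-120489065) had 65.7, 68.1 and 71.8 in WT and 73.1, 74.8 and 75.2 in SRAKO, so all 3 SRAKO hearts lay above. Its means were 68.5 ± 3.06 and 74.3 ± 1.11, a difference of 0.12 (SE 0.10; limma unadjusted p = 0.259). Mrpl10, which anchors the copies of Mrpl12, had 17.8 ± 2.91 and 19.3 ± 1.12, and WT2368 alone read 14.5 where the other 5 hearts read 18.02 to 20.1. Mrpl11 had 7.13 ± 0.487 and 7.80 ± 0.460. The hearts of Mrpl10 and Mrpl11 overlapped, with differences of 0.12 and 0.11.

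In the further large subunit genes named here the hearts of the genotypes overlapped. Mrpl2, the homologue of L2 beside the peptidyl transferase centre, had 17.9, 14.8 and 20.4 in WT and 22.2, 21.4 and 17.9 in SRAKO. Its difference of 0.20 was the highest of all members, and its standard error was 0.14. Mrpl14, the homologue of L14, had 37.1 ± 4.79 and 40.4 ± 0.632, and Mrpl28 had 37.7 ± 2.83 and 41.2 ± 2.41, each a difference of 0.13. Mrpl45, which helps to hold the ribosome at the inner membrane, had 11.9 ± 0.985 and 12.1 ± 1.36, a difference of 0.02 (SE 0.11). Mrpl3 and Mrpl44 are further genes linked to cardiomyopathy in patients, and Mrpl44 was chosen after its values had been seen. Mrpl3, in a row shared with Gm38077, had 3.89 ± 0.114 and 3.80 ± 0.0707, and Mrpl44 had 11.7 ± 1.55 and 12.7 ± 1.198.

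Genes with a small subunit symbol (Mrps) formed a smaller share of the members' summed FPKM in SRAKO hearts. They made up 28.2%, 28.5% and 28.9% of the summed FPKM of all members in the WT hearts and 26.8%, 27.1% and 26.5% in the SRAKO hearts, so the genotypes did not overlap. The means were 28.5% ± 0.316 and 26.8% ± 0.291 (SD, n = 3). Such a share is taken within a heart and does not depend on how the hearts are scaled to each other. Ribosomal proteins without an Mrp symbol, among them Dap3 of the small subunit, enter neither these shares nor the subunit levels below. All 5 of them were higher in SRAKO, so the share describes the Mrps symbols and not the whole subunit. No test was made, because the members were chosen with results of these data known.

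The gap was smaller without Mrps21. This gene supplied 15.8%, 17.0% and 17.4% of the summed small subunit FPKM in WT and 12.5%, 12.3% and 10.9% in SRAKO. With Mrps21 left out, a choice made after the values had been seen, the small subunit share was 24.9%, 24.9% and 25.1% in WT and 24.2%, 24.6% and 24.3% in SRAKO. These hearts still did not overlap, but the means were 24.95% ± 0.117 and 24.4% ± 0.173. In absolute terms the sums overlapped: small subunit sums were 297, 314 and 328 in WT and 301, 306 and 291 in SRAKO, and large subunit sums 754, 787 and 810 against 824, 823 and 807.

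**Figure D4:**
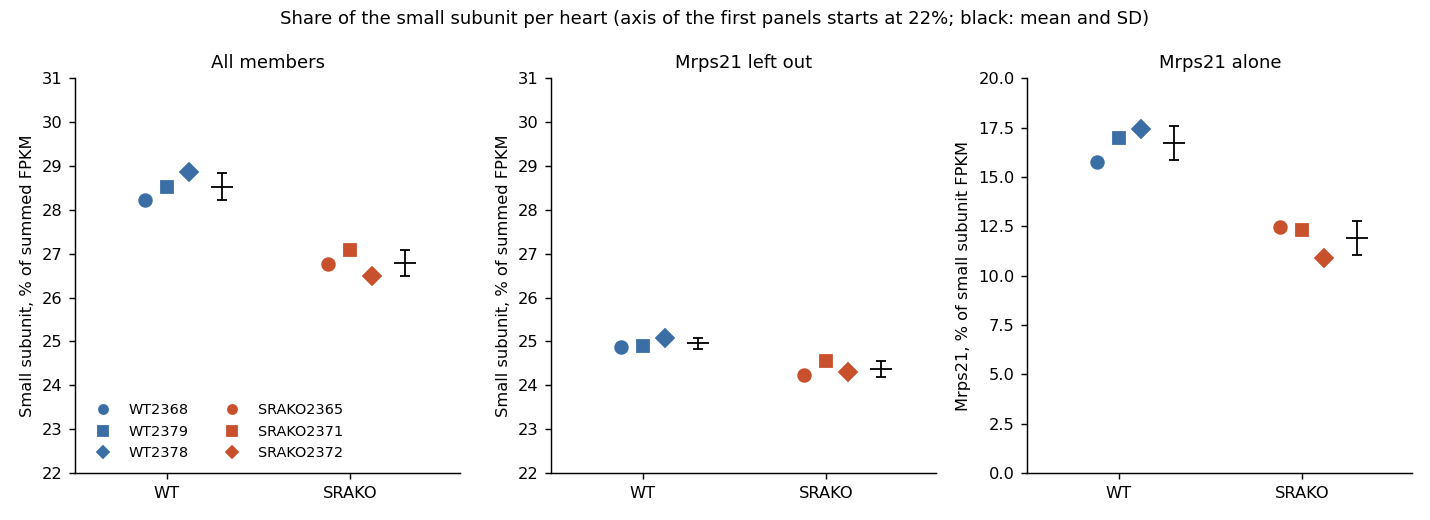
Small subunit share of the summed FPKM of all members in each heart, with all members (left) and without Mrps21 (middle), on axes that start at 22%, and Mrps21 as a share of the small subunit sum (right), on an axis from 0; black marks give mean and SD. The WT hearts lie above the SRAKO hearts in all 3 panels, by 28.5% against 26.8% on average with all members and by 24.95% against 24.4% without Mrps21.

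A mean of log2(FPKM + 1) over genes, in which each gene counts equally, gave the same order. Small minus large subunit was -0.51, -0.49 and -0.50 in WT and -0.53, -0.54 and -0.55 in SRAKO, a difference between genotype means of -0.04 beside an SD of 0.0101 among WT hearts and 0.00999 among SRAKO hearts. Without Mrps21 it was -0.02, again with no overlap, but the nearest hearts almost touched, at -0.604 in WT2368 and -0.607 in SRAKO2365. With medians over genes in place of means it was -0.07 with overlapping hearts. Moving Mrps18a and Mrps30, which lie in the large subunit of the known structures, and leaving out Mrps36 gave -0.04. The SD among SRAKO hearts was then 0.0234, and the nearest hearts were -0.504 in WT2378 and -0.511 in SRAKO2365. The mean level of the small subunit was 3.07 in both genotypes, and that of the large subunit was 3.58 in WT and 3.61 in SRAKO. Neither mean separated the genotypes by itself.

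By single genes, 18 of 29 small subunit genes were higher in SRAKO with a median of 0.03, and 37 of 49 large subunit genes with a median of 0.04. Within the small subunit, the 16 genes with bacterial numbers split into 8 higher and 8 lower, with a median of 0.01, and the 13 with higher numbers into 10 and 3, with a median of 0.05. Large subunit genes split 20 and 8 with bacterial numbers and 17 and 4 with higher ones, with medians of 0.05 and 0.04. These counts share the same 6 hearts and carry no test.

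The ribosomal RNAs of the particle were high in 1 library of each genotype. The 12S RNA mt-Rnr1 read 4548 in WT2368 and 1896 in SRAKO2371 against 879 to 1122 in the other 4 hearts, and the 16S RNA mt-Rnr2 read 3795 and 1993 against 933 to 1311. The 2 hearts with high values are those in which AY036118 was high. Libraries were made with oligo(dT) beads, which capture poly(A) RNA, so these levels also depend on the capture. Eral1, a chaperone that binds the 12S RNA during small subunit assembly, read 4.54, 4.74 and 4.55 in WT and 6.75, 7.61 and 7.70 in SRAKO. Its groups were far apart, in the direction opposite to Mrps21, but the difference of 0.57 did not pass adjustment (limma, Benjamini-Hochberg adjusted p = 0.526).

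Genes that work with the mitochondrial ribosome showed no common direction. The 5 ribosomal proteins that carry no Mrp symbol were all higher in SRAKO, with a median of 0.08. Of these, Dap3, a GTP-binding protein of the small subunit, had 4.59, 5.47 and 5.34 in WT and 5.99, 6.30 and 5.96 in SRAKO, without overlap and with a difference of 0.21 (SE 0.09). Assembly factors and rRNA modifiers split 12 higher and 11 lower with a median of 0.01. Translation factors split 4 and 10 with a median of -0.03, and Taco1, an activator of Cox1 translation, had 14.5 ± 0.810 and 13.4 ± 1.61. Mitochondrial tRNA synthetases split 7 and 7, and Lars2, which charges leucine tRNA, was 1.903, 1.53 and 1.73 in WT and 1.33, 1.33 and 1.35 in SRAKO (difference -0.22, limma unadjusted p = 0.0388, adjusted p = 0.999). Of the transcription and biogenesis regulators, 4 were higher and 6 lower, and Polrmt, the mitochondrial RNA polymerase, had 3.97 ± 1.07 and 5.17 ± 0.447 with overlapping hearts.

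A further 3 lists had more genes higher than lower in SRAKO. Nuclear-encoded respiratory chain genes were higher in 64 of 86 with a median of 0.05, beside 53.5% and 0.01 over all tested rows, and Uqcrh, a complex III subunit, had 215 ± 21.1 and 255 ± 13.9 without overlap. The mitochondrially encoded RNAs, in 29 rows that include rRNAs and tRNAs, were higher in 18 with a median of 0.06 and quartiles of -0.12 and 0.11. Cytosolic ribosomal protein genes were higher in 72 of 84 with a median of 0.08, and Rpl14 had 28.3 ± 0.560 and 33.1 ± 1.62 without overlap. Hearts were apart in 5.81%, 3.45% and 4.76% of the rows of these 3 lists in that order, beside 8.05% of all tested rows. In none of these lists did limma call a gene at an adjusted p under 0.05. At an unadjusted p under 0.05 stood Eral1 and Lars2 alone. All lists share the same hearts, so their medians are not independent of those of the members.

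**Figure D5:**
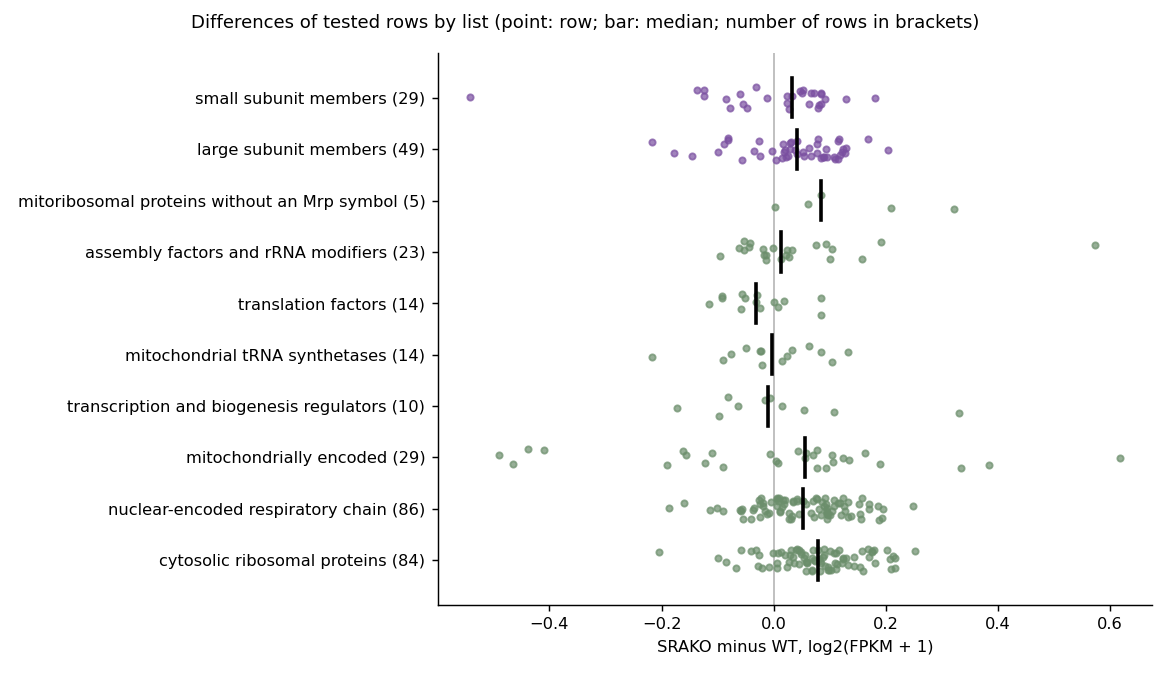
Differences between genotypes of the small and large subunit members (purple) and of related gene lists (green), SRAKO minus WT in log2(FPKM + 1); each point is a row and the black bar is the list's median. Medians run from -0.03 for translation factors to 0.08 for cytosolic ribosomal proteins and for the 5 mitochondrial ribosomal proteins without an Mrp symbol, and Mrps21 and Eral1 are the outlying points of their lists.

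The promoters of the members shared short motifs that the choice of genes did not use. RefSeq windows from 250 bases before to 50 bases after a start (GRCm38.p6) were found for 69 of the 78 genes, in 75 windows. Searched on both strands were CCGGAAG, a site type of ETS factors such as GABP, GCATGCG, that of NRF1, and AAGATGG, that of YY1; these factors are known regulators of mitochondrial genes. The ETS type stood in 34.7% of member windows and 8.86% of all 32851 windows, the NRF1 type in 10.7% and 3.58%, and the YY1 type in 17.3% and 6.34%. At least 1 of them stood in 50.7% of member windows and 17.3% of all. The member windows were also richer in G and C, with a median of 58.7% against 52.7%, which by itself changes how often such letters occur. The set of all windows was not limited by gene type or by expression in heart, whereas every member passed the filter on low rows. Whether the shares differ from those of other expressed protein-coding genes was not tested.

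Small and large subunit windows held the ETS type at 40.7% and 31.3% and the NRF1 type at 3.70% and 14.6%. Genes with and without any of the motifs had median levels of 10.2 and 12.2 and median differences between genotypes of 0.04 and 0.03. A match is a run of letters and not a measured binding site.

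Of the 12 genes whose hearts did not overlap, 10 had a window and 8 of these a match. Stretches around some matches, in 6 of them, are printed to show the sites beside the values above. Each is read on the strand on which the motif runs forward, with the motif in capitals. The plus or minus number is the place of its first base in the gene's window, counted from the start site. In the printed sites of Mrpl32 and Mrpl9 the NRF1 type lies in a palindrome that matches on both strands, which puts 8 letters in capitals.
Mrps21 (+19, chr3:95871480-95871506, plus strand): tctctgcggaCCGGAAGcggaagctac
Mrpl51 (-90, chr6:125192100-125192126, plus strand): aggggctaaaCCGGAAGtatttgactg
Mrpl57 (+5, chr14:57826233-57826259, plus strand): cccagagagaCCGGAAGcagcgcgccg
Mrps26 (-14, chr2:130563733-130563759, minus strand): tgcgcccggcCCGGAAGtggccgcgga
Mrpl32 (-86, chr13:14613107-14613133, plus strand): cccctcttgCGCATGCGcaagggtcaa
Mrpl32 (-23, chr13:14613044-14613070, plus strand): cgggctgagCGCATGCGttaagtccgc
Mrpl9 (-27, chr3:94443299-94443325, minus strand): aggaccccgCGCATGCGcagctgcgcc
Matches not printed are those of Mrps18c (ETS type, -156) and Mrpl35 (YY1 type), and further ones of Mrpl32 (NRF1 type, -65, and YY1 type, -241). The ETS type thus occurred in genes that were lower in SRAKO (Mrps21, Mrpl57) and in genes that were higher (Mrpl51, Mrps26, Mrps18c). Of the 8 genes with the NRF1 type, Mrpl32 and Mrpl9 were lower and the other 6 were higher with overlapping hearts. Their median difference was 0.04, beside 0.03 in the 61 genes without it. Mrpl12, the highest member, had no match in its window.

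Some values may mix a gene with its copies or neighbours. Near-identical copies, with at least 90% identity over at least 80% of the coding sequence, were found for 22 of the 78 genes, 38 copies in all and 37 of them pseudogenes. Only 3 copies had a row of their own at a mean FPKM of at least 1. Mrpl23-ps1 is identical to Mrpl23 over 81.6% of its 516 coding bases and read 19.5, 23.2 and 26.0 in WT and 25.2, 28.7 and 23.8 in SRAKO. Mrpl23 itself, the homologue of L23, read 2.15, 2.59 and 2.88 against 2.76, 2.93 and 2.79, so the pseudogene row was 9.09 times higher. Reads of that pair may have been divided between the rows, and the level of Mrpl23 is uncertain. Gm5776, 99.7% identical to Mrps33, read 3.73 ± 0.994 and 3.89 ± 0.334, below the 16.6 of Mrps33, and Gm6304, 98.9% identical to Mrpl27, read 1.41 ± 0.698 and 1.56 ± 0.419.

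Of the 3 copies of Mrps21, Gm6181 alone was matched to a row. It is 97.3% identical over the 261 coding bases and read 0.135 ± 0.178 in WT and 0.101 ± 0.126 in SRAKO.

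In 8 members the row carries a further symbol. These are Mrpl3, Mrps24 (with Urgcp), Mrps6 (with Slc5a3), Mrps34 (with Nme3), Mrpl33 (with Gm43809 and Babam2), Mrps18c, Mrpl53 (with Ccdc142 and Gm42688) and Mrpl51. Among the other 70 genes 49 were higher and 21 lower, with a median of 0.04. Mrps11 and Mrpl46, named here for their position, start head to head on chromosome 7 with annotations that overlap by 412 bases. Mrps11, a homologue of bacterial S11, had 7.89 ± 0.519 and 8.40 ± 0.354, and Mrpl46 had 15.4 ± 1.01 and 15.7 ± 1.19, with overlapping hearts in both.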

How the data were processed

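The authors deposited FPKM values per gene, in 1 table for all 6 hearts. FPKM is no count, and no reads were used here. The submitters' processing notes name the human build hg38 and the tools edgeR, StringTie 1.3.4d, HISAT2 2.0.4 and cutadapt 1.9, while the table's identifiers are mouse genes. Of its 82368 transcript identifiers, 98.3% matched GENCODE M21 (GRCm38), which gave the positions. Rows with FPKM of at least 1 in at least 3 hearts (10201) were fitted by genotype on log2(FPKM + 1), computed here from the deposited FPKM, with limma 3.58.1 in R 4.3.3, with a variance trend and a two-sided test. The limma script was tested on simulated data. The labels share no replicate number between genotypes, so no pairing was used. In rows of 1 transcript, the commonest low value of FPKM times kilobase was 0.0434 to 0.0685 per heart, though 141 to 168 rows per heart lay at a step below it. If the commonest value is 1 fragment, an FPKM of 1 stands for 14.6 fragments per kilobase in WT2368 and 17.8 to 23.1 in the others. The reading is unverified, so no count test was run.

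Members and lists were chosen with earlier results of these data known. Named were members with unadjusted p under 0.05 or hearts that do not overlap, the 4 highest and 4 lowest of each subunit, the 5 largest differences in each direction, Mrps18 paralogs, stalk proteins, Mrpl45, members sharing a row, Eral1, mitochondrial rRNAs and up to 3 genes of each related list by p. Copies were searched with blastn 2.17.0. Alternatives changed the pseudocount, filter, scaling, weights, trend, hearts and subunit assignment.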

Additional observations from a re-analysis of the deposited data

How the results depend on the processing

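No member was called by limma under any alternative, and at an unadjusted p under 0.05 there was 1 (Mrps21), or 1 to 2 with single hearts left out. Over all rows, 2 were called, against 1 with a pseudocount of 0.1, a filter at FPKM 5 or the same FPKM sum in every heart, and 0 with no filter (919 rows at an unadjusted p under 0.05), without both WT2368 and SRAKO2371 (672) or with these 2 hearts as a batch (407). Leaving out single hearts gave 0 to 7: 0 without WT2368 or SRAKO2365, 1 without SRAKO2371 or SRAKO2372, 6 without WT2379 and 7 without WT2378. Members with hearts apart, 5 lower and 7 higher, became 2 and 3 with the filter at FPKM 5, which tests 53 members, 1 and 1 with the same FPKM sum, 4 and 3 with quantile normalization, and 16 and 13 without both hearts. Leaving out single hearts gave 5 to 10 lower and 7 to 19 higher. The shares of all rows were 3.76% and 4.28%, 2.66% and 4.22%, 2.12% and 2.46%, 5.29% and 5.17%, and 26.0% and 13.0% in the same order, and 5.67% to 18.4% and 6.26% to 12.6% with single hearts left out. The small minus large subunit difference of -0.04 became -0.0566 with the filter at FPKM 5, -0.0177 without Mrps21 and -0.0670 with medians over genes (the last 2 chosen after seeing the data), and -0.04 to -0.03 with single hearts left out. Medians ran from -0.03 to 0.08 for the small and 0.02 to 0.06 for the large subunit with single hearts left out, and with array weights that of the small subunit was -0.01. Mrps22 changed sign, to 0.0343, without both hearts; the other 262 values of named members kept their direction and call. Summing all rows of a symbol changed nothing, since no symbol occurs in several rows. The cause of these shifts was not tested where none is given. No paired analysis was possible because the hearts of the 2 genotypes share no replicate number.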
